A study of Mus musculus with 8 samples.

Results

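The triglyceride assembly genes Gpam, Agpat2, Lpin1, Dgat1, Dgat2, Thrsp, Lpl and Pck1 were followed in mouse white adipose tissue. They were taken by gene symbol from the deposited annotation, in which 17 of the 45037 probe sets carry 1 of these symbols, and they are 8 of the 20743 genes named on the array. The 4 groups measured were rsl males, wild type males, rsl females and wild type females. The rsl mice were B10.D2.PL (rsl/rsl), called Rsl-null by the study, and the wild type mice were B10.D2 (Rsl/Rsl). The mice were adult and ate standard chow (Purina), and each of the 2 arrays of a group held RNA of abdominal white fat pooled from 5 mice. The strains can differ in segments other than the Rsl genes, which code for Krüppel-associated box zinc finger proteins that repress transcription, so that effects of the 2 kinds cannot be told apart.

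An adipocyte builds triglyceride on a backbone of glycerol 3-phosphate. Gpam attaches the first fatty acid, Agpat2 the second, Lpin1 removes the phosphate to give diacylglycerol, and Dgat1 and Dgat2 attach the last fatty acid. Lpl, secreted by the adipocyte and moved to the capillary wall, frees fatty acids from lipoproteins in blood. Pck1 is the key enzyme of glyceroneogenesis, which makes glycerol 3-phosphate where glucose is scarce, and Thrsp is a nuclear protein that stimulates fatty acid synthesis in fat and liver. White fat stores energy by this route, and loss of Agpat2 causes lipodystrophy in humans and mice.

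Of 14 measured adipocyte markers, 14 lay above the background of every array, although 1 label field names liver as the source. Rsl1 had log2 signals of 3.98 and 3.83 in rsl males, against 4.62 and 5.02 in wild type males, and of 3.57 and 3.69 in rsl females, against 5.09 and 5.25 in wild type females. Its groups did not overlap in either sex. Rslcan18, the other Rsl gene looked up, had 4.13 and 4.08 in rsl males, against 4.52 and 4.38 in wild type males (adjusted p = 0.0887), and 4.37 and 4.28 in rsl females, against 4.34 and 4.40 in wild type females (adjusted p = 0.89). Its signals were low on all arrays and its female groups overlapped. Several markers of other tissues moved with the groups. The 11 measured epididymis markers averaged 12.04 and 11.46 in rsl males, 6.72 and 5.14 in wild type males, and 3.80 to 4.002 in females. In wild type male 1 the list split: Lcn5, Crisp1, Adam7 and Wfdc15b had 11.04 to 12.60, and the other markers 3.25 to 4.32. The adipocyte markers averaged 10.56 and 11.18 in rsl males, against 11.15 and 11.31 in wild type males. Rsl females had 11.44 and 11.45, against 11.46 and 11.43 in wild type females. By its adipocyte mean rsl male 1 stood apart from the other 7 arrays, while both rsl male pools had far higher epididymis means than the rest. The part of these tissues in the results below was not tested. The 3′ minus 5′ difference (log2) of the Gapdh control probe sets, a check of RNA integrity, was 0.79 and 1.03 in rsl males, 0.68 and 0.71 in wild type males, and 0.50 to 0.72 in females, and the median signal of an array was 4.54 to 4.58.

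The proximal promoters of 4 genes are shown for reference, those of Gpam, Agpat2 and Thrsp, which were lower in rsl males than in rsl females, and that of Pck1, which did not pass that test. RefSeq's promoter table (GRCm38.p6) held 5 of the 8 genes, in 6 windows. Each sequence is the 250 bases before the annotated start, 5′ to 3′ on the strand of the gene, and capitals mark matches to the motifs searched on both strands. These were the CCAAT box, the GC box GGGCGG, the core TGACG of the cyclic AMP response element, the nuclear receptor half-site AGGTCA, the E-box CACGTG and the TATA box TATAAA.
Gpam (chr19:55127239-55127488, minus strand): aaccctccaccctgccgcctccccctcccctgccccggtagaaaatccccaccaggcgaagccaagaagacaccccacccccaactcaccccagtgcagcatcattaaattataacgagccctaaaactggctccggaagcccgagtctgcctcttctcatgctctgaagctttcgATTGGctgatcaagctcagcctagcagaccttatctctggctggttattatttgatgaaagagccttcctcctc
Agpat2 (chr2:26604418-26604667, minus strand): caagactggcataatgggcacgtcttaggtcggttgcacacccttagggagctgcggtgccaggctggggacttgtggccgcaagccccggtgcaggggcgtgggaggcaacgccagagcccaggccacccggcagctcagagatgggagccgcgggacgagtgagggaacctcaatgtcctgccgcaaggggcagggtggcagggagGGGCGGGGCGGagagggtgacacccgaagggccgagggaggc
Thrsp (chr7:97417551-97417800, minus strand): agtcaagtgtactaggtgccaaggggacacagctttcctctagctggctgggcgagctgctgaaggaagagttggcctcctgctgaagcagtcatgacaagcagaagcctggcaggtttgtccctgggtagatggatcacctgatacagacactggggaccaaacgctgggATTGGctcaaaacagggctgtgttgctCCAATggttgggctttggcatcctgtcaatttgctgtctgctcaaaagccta
Pck1 (chr2:173152823-173153072, plus strand): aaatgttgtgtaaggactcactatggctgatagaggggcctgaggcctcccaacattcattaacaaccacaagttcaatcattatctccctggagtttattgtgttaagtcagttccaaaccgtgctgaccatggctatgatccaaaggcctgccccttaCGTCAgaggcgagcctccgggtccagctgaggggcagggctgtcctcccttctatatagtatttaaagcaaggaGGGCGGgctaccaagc
The Agpat2 window held 2 overlapping GC boxes, the first of which began at base -42 from the start, and the Pck1 window held 1 at -16. CCAAT or its complement began at -74 for Gpam, and at -79 and -52 for Thrsp. The complement of TGACG began at -90 for Pck1, a gene that cyclic AMP is known to induce in liver. These letters are common: 32.7% of the 32851 promoter windows held GGGCGG, 33.8% CCAAT and 17.8% TGACG. A second annotated start of Gpam has its own window, not shown, which held AGGTCA, the complement of TGACG and the complement of GGGCGG.

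The question of the study was whether loss of the Rsl genes alters gene expression in fat of each sex. No triglyceride assembly gene passed the test between rsl and wild type pools in either sex, whereas 5 of the 8 were lower in males than in females of the rsl strain and 1 in wild type. The values of each gene follow, as log2 signals of its brightest probe set in the 2 pools of a group. Differences are signed as rsl minus wild type and as male minus female, so that a negative value is lower in rsl or in males. Errors are the SE of the limma fit, and a p-value was called past the threshold when it was under 0.05 after Benjamini-Hochberg adjustment over all probe sets. With 2 pools a group, it measures the spread between pools and not between mice. The fit takes 1 spread for all 4 groups, but rsl males varied most. Their SD was 0.34 for Dgat2 and 0.485 for Thrsp, against 0.002 and 0.028 in rsl females. Array weights estimated over all probe sets, lower where pools differ more, were 0.54 in rsl males against 0.92 to 1.69 in other groups. The SE of differences with rsl males can thus understate the spread of that group.

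**Figure D1:**
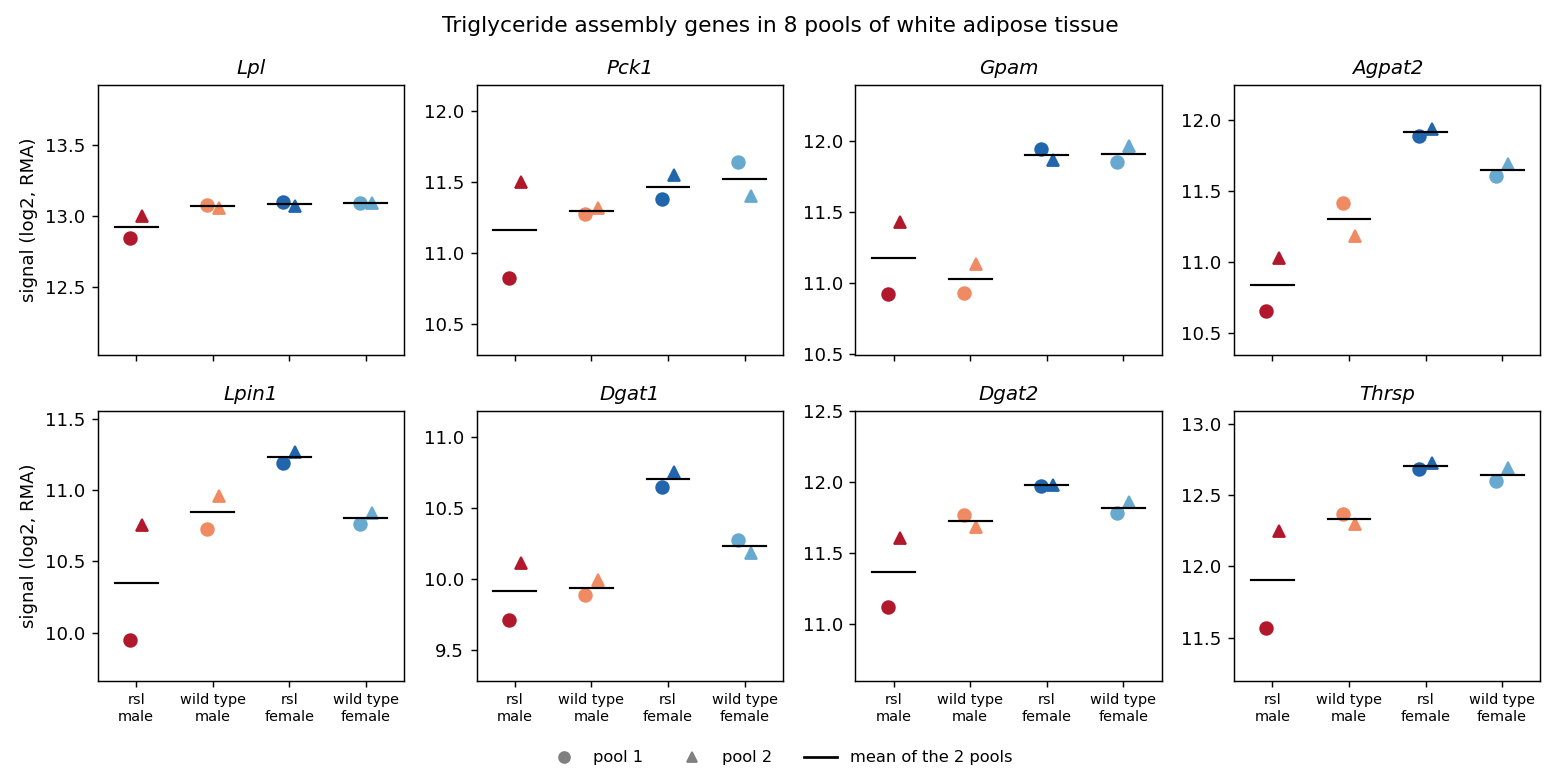
Log2 signal (vertical axis) of the 8 genes in each of the 8 pools, with 1 panel per gene and groups along the horizontal axis, where circles and triangles are the pools and lines are group means. Rsl male 1 is the lowest pool in all 8 panels, and all 4 male pools lie below all 4 female pools for Gpam, Agpat2, Dgat1, Dgat2 and Thrsp.

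Gpam, the acyltransferase of the first step, had 10.92 and 11.42 in rsl males, against 10.93 and 11.13 in wild type males. Rsl females had 11.94 and 11.86, against 11.85 and 11.97 in wild type females. All 4 male pools lay below all 4 female pools, and the strains overlapped in both sexes. Gpam was lower in males than in females by -0.73 ± 0.16 in rsl (SE, 1.66-fold lower, adjusted p = 0.0325) and by -0.88 ± 0.16 in wild type (1.84-fold lower, adjusted p = 0.0366). It was the one gene of the 8 past the threshold in wild type. Its second probe set was dim, 4.11 to 5.05 over the pools and as little as 0.25 above background. It was lower by -0.73 ± 0.12 in rsl males (adjusted p = 0.0127). In wild type it differed by -0.45 ± 0.12 between the sexes (adjusted p = 0.0949), so the wild type call rests on the brighter probe set. The wild type call was lost without either wild type male pool or without any 1 female pool, with adjusted p from 0.00358 to 0.256 over the 8 fits that leave 1 array out.

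Agpat2, the acyltransferase of the second step, had 10.66 and 11.03 in rsl males, against 11.42 and 11.19 in wild type males. Rsl females had 11.89 and 11.94, against 11.60 and 11.69 in wild type females. Both rsl male pools were the lowest of the 8 and both rsl female pools the highest, so the strains did not overlap in either sex. The sex difference was -1.07 ± 0.14 in rsl (2.10-fold lower in males, adjusted p = 0.00651) and -0.34 ± 0.14 in wild type (adjusted p = 0.258). The rsl value was the largest among the brightest probe sets of the 8 genes. Further probe sets of Dgat2, Thrsp and Pck1, given below, differed by more. The strain difference was -0.46 ± 0.14 in males (unadjusted p = 0.012, adjusted p = 0.133) and 0.27 ± 0.14 in females (adjusted p = 0.529).

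Lpin1, the phosphatidate phosphatase, had 9.95 and 10.76 in rsl males, against 10.73 and 10.96 in wild type males. Rsl females had 11.20 and 11.27, against 10.77 and 10.84 in wild type females. The rsl female pools were the highest, and rsl male 1 lay below the other 7 by more than those differed among themselves. Lpin1 differed by -0.88 ± 0.23 between rsl males and rsl females (adjusted p = 0.0537) and by 0.04 ± 0.23 between wild type males and females (95% interval -0.51 to 0.59). The 2 strains overlapped in males, where they differed by -0.49 ± 0.23 (adjusted p = 0.291), and not in females, where they differed by 0.43 ± 0.23 (adjusted p = 0.562). A further probe set gave sex differences of -0.84 ± 0.23 in rsl (adjusted p = 0.0567) and 0.01 ± 0.23 in wild type.

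Dgat1, an acyltransferase of the endoplasmic reticulum that completes triglyceride, had 9.72 and 10.12 in rsl males, against 9.89 and 9.99 in wild type males. Rsl females had 10.65 and 10.76, against 10.28 and 10.19 in wild type females. The male pools of the strains overlapped, and both rsl female pools lay above both wild type female pools. Dgat1 was lower in males than in females of the rsl strain by -0.79 ± 0.13 (1.73-fold lower, adjusted p = 0.0146), and the difference in wild type was -0.29 ± 0.13 (adjusted p = 0.327). Between the strains the difference was -0.03 ± 0.13 in males (95% interval -0.34 to 0.29) and 0.47 ± 0.13 in females (unadjusted p = 0.00942, adjusted p = 0.288). A dimmer Dgat1 probe set, 5.77 to 6.77 over the pools, was highest in rsl male 2 and differed by -0.15 ± 0.27 between the sexes in rsl (adjusted p = 0.777), so the 2 probe sets disagreed.

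Dgat2, the other enzyme of this last step and unrelated to Dgat1 in sequence, had 11.13 and 11.61 in rsl males, against 11.77 and 11.69 in wild type males. Rsl females had 11.98 and 11.98, against 11.78 and 11.86 in wild type females. The rsl pools were the lowest in males and the highest in females, with no overlap between strains in either sex. Dgat2 was lower in rsl males than in rsl females by -0.61 ± 0.15 (1.53-fold lower, adjusted p = 0.0397), and differed by -0.10 ± 0.15 between the sexes in wild type (95% interval -0.44 to 0.25). Its second probe set was lower by -1.21 ± 0.26 in rsl males (adjusted p = 0.0289). The strain difference was -0.36 ± 0.15 in males (adjusted p = 0.227) and 0.16 ± 0.15 in females (adjusted p = 0.748).

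Thrsp had 11.56 and 12.25 in rsl males, against 12.37 and 12.30 in wild type males. Rsl females had 12.69 and 12.73, against 12.60 and 12.69 in wild type females. Rsl males were the lowest group and did not overlap with any other, while the 2 female groups overlapped narrowly. It was lower in rsl males than in rsl females by -0.80 ± 0.20 (1.74-fold lower, adjusted p = 0.0435), against -0.31 ± 0.20 between the sexes in wild type (adjusted p = 0.504). A second probe set, with 10.02 and 11.22 in rsl males against 12.34 and 12.45 in rsl females, was lower by -1.78 ± 0.34 (adjusted p = 0.02). Another, 5.40 to 6.35 over the pools, differed by -0.34 ± 0.14 in rsl (adjusted p = 0.158) and -0.64 ± 0.14 in wild type (adjusted p = 0.0533).

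Lpl, which supplies fatty acids from lipoproteins, had 12.85 and 13.00 in rsl males, against 13.08 and 13.06 in wild type males. Rsl females had 13.10 and 13.07, against 13.10 and 13.10 in wild type females. Both rsl male pools lay below the other 6, which lay close together. The highest signal of any probe set on an array was 13.43 to 13.48, so this probe set read near the top of the range, where arrays are known to compress differences. Lpl differed by -0.16 ± 0.08 between rsl males and rsl females (adjusted p = 0.239) and by -0.14 ± 0.08 between the strains in males (adjusted p = 0.348). Its other probe set had 11.76 and 12.33 in rsl males, against 12.45 and 12.46 in wild type males. Rsl females had 12.56 and 12.47, against 12.51 and 12.42 in wild type females, and differed by -0.47 ± 0.17 between the sexes in rsl (adjusted p = 0.118). Skeletal muscle, which also makes Lpl, had marker means of 4.36 and 4.50 in rsl males, against 4.34 and 4.27 in wild type males. Rsl females had 7.12 and 5.50, against 7.61 and 7.31 in wild type females; the part of muscle RNA in the Lpl values was not tested.

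Pck1, the source of glycerol 3-phosphate without glucose, had 10.83 and 11.50 in rsl males, against 11.27 and 11.32 in wild type males. Rsl females had 11.38 and 11.55, against 11.64 and 11.40 in wild type females. The 2 strains overlapped in males, where the rsl pools were both the lowest and the highest, and in females. Its differences were -0.13 ± 0.21 between the strains in males (95% interval -0.62 to 0.36), -0.06 ± 0.21 in females, -0.30 ± 0.21 between the sexes in rsl (adjusted p = 0.408) and -0.22 ± 0.21 in wild type. A dimmer probe set, with 5.56 and 6.73 in rsl males against 7.28 and 7.47 in rsl females, differed by -1.24 ± 0.34 (adjusted p = 0.0576). The remaining Pck1 probe set was not above background on any array.

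Between rsl and wild type, 0 of the 8 genes passed the threshold in males (1.77% of all named genes did), 0 in females (0.27%) and 0 in the average over the sexes (1.51%). In males 7 of the 8 differences were negative, with a median of -0.25 against -0.001 over all genes, and 2 genes (Agpat2 and Dgat2) had an unadjusted p under 0.05, as did 24.6% of all genes. Both rsl male pools lay below both wild type male pools for 4 genes (Agpat2, Dgat2, Thrsp and Lpl), as for 26.5% of all genes. In females the median was 0.11 against 0.016 over all genes, and both rsl pools lay above both wild type pools for Agpat2, Lpin1, Dgat1 and Dgat2, as for 28.8% of all genes. The fit to the 2 female groups alone called Lpin1 and Dgat1 higher in rsl, and it called 4.46% of all probe sets. Without rsl male 2, 4 genes (Agpat2, Lpin1, Dgat2 and Thrsp) passed in males and Thrsp in the average, while the share of all probe sets called was 15.5% in males, against 1.32% with all arrays, and 13.7% in the average. The rsl male group is then 1 array, assumed to vary like the other groups.

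**Figure D2:**
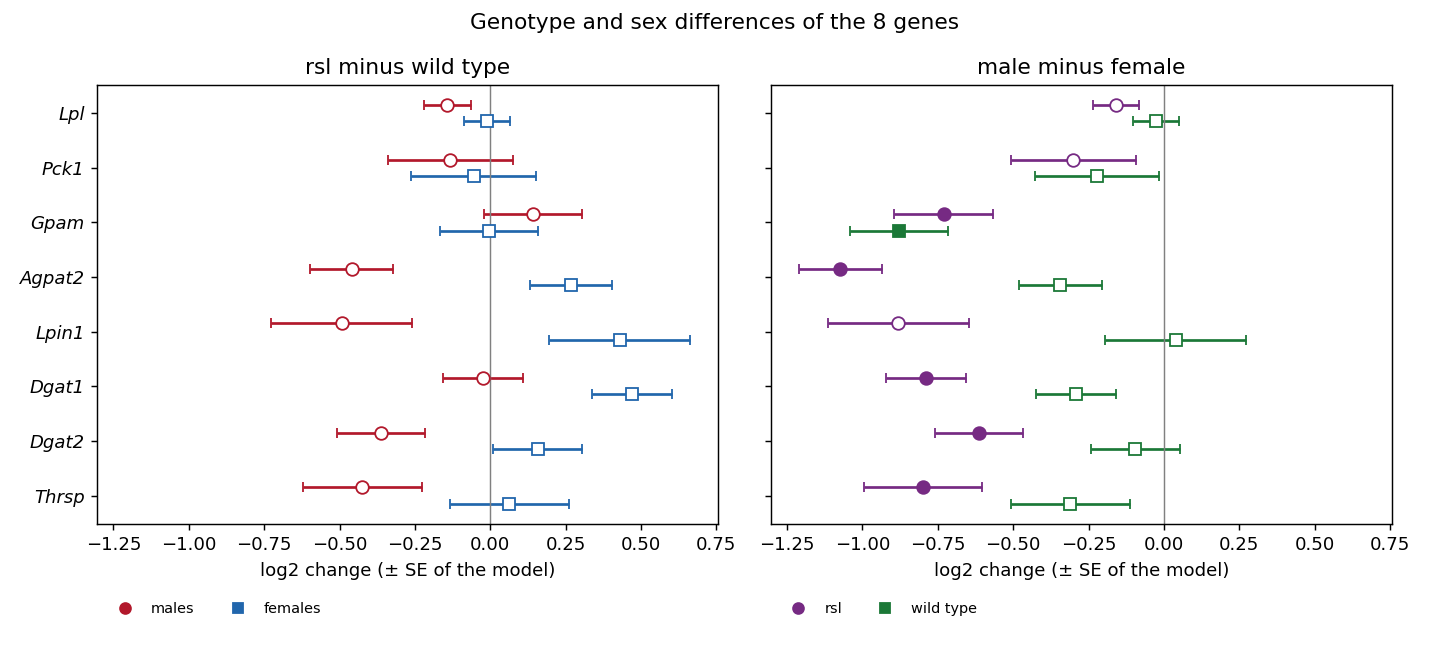
Log2 differences (axis in log2 units) of the 8 genes between strains and between sexes, where bars are SE and filled points have an adjusted p under 0.05. By brightest probe set, 5 genes pass in the male minus female difference of the rsl strain, from -0.61 for Dgat2 to -1.07 for Agpat2. Gpam passes at -0.88 in wild type, and none passes between the strains. Relative to adipocyte markers, not drawn, where each SE is larger, none of these probe sets passes in any comparison. Those of Lpl and Pck1 then turn positive between the sexes in rsl. A further Thrsp probe set, not drawn, does pass in rsl on that scale, with -1.20 (adjusted p = 0.00145).

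Between the sexes of the rsl strain, 5 of the 8 genes were lower in males (Agpat2, Dgat1, Gpam, Dgat2 and Thrsp) and none was higher, where 9.15% of all named genes were lower and 6.48% higher. All 8 differences were negative, though those of Lpl and Pck1, by their brightest probe sets, turned positive relative to adipocyte markers, and the median was -0.76 against -0.025 over all genes. By probe set, 8 of 17 were lower (7.61% of all probe sets). In wild type 1 of the 8 was lower (2.79% of all named genes), 7 differences were negative, and the median was -0.26 against -0.004. Both male pools lay below both female pools for 7 genes in rsl (all but Pck1), as for 33.3% of all genes, and for 7 in wild type (all but Lpin1), as for 28.7%. All 4 male pools lay below all 4 female pools for 5 genes, as for 12.2% of all genes. Markers of other cells moved with sex as well. The 7 brown or beige adipocyte markers averaged 4.66 to 5.03 among males of either strain, against 5.72 to 6.22 among females. Of the 7, 5 were lower in males in rsl and 4 in wild type. Ppargc1a went the other way in wild type, with 6.02 and 6.94 in males against 5.59 and 5.38 in females. Ucp1 was above background on only 4 arrays. Dio2 had 6.03 and 5.38 in rsl females, against 4.07 and 4.17 in wild type females and 4.02 to 4.17 in males. The 10 testis markers averaged 6.08 and 4.64 in rsl males and 6.42 and 6.60 in wild type males, against 3.68 to 3.73 in females. The 9 genes listed as mammary epithelium markers averaged 6.88 and 6.45 in rsl males and 6.28 and 5.53 in wild type males, against 4.78 to 5.10 in females. Within this list Csn2 and Elf5 were not above background on any array, and Wap had 3.791 to 4.005 over the pools. Krt18 had 8.12 to 10.60 in males against 6.31 to 6.49 in females. The list thus did not move as a whole, and mammary tissue was not shown. The part of other cells in the sex differences was not tested.

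How many passed in rsl depended on the pools that entered. The count was 3 without rsl male 1, where 7.2% of all probe sets were called in either direction, against 12.3% with all arrays. It was 7 without rsl male 2 (22.2%), 3 without either wild type male pool (12.6%), 0 without either rsl female pool (1.27% and 1.59%) and 2 without either wild type female pool (6.02%). It was 1 (Agpat2) in the fit of the 2 rsl groups alone (4.13%) and 6 with the replicate number as a block (13.3%). Except without a wild type male pool, the share of all probe sets moved the same way.

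The difference of the 2 differences, rsl minus wild type in males minus that in females, was tested for all genes. None of the 8 passed (0.101% of all named genes did), and 4 had an unadjusted p under 0.05, as did 12.8% of all genes. Agpat2 had -0.73 ± 0.19 (unadjusted p = 0.00698, adjusted p = 0.275), Lpin1 -0.92 ± 0.33 (adjusted p = 0.386), Dgat2 -0.52 ± 0.21 (adjusted p = 0.435) and Dgat1 -0.50 ± 0.19 (adjusted p = 0.407). A larger sex difference in rsl than in wild type was thus not shown for any of them. Without rsl male 2, 5 genes passed (Agpat2, Lpin1, Dgat1, Dgat2 and Thrsp), where 6.35% of all probe sets did, against 0.0577% with all arrays. Rsl male 1 then stood alone for its group and was assumed to vary like the others.

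Rsl male 1 was the lowest of the 8 pools for 8 of 8 genes, as for 25.2% of all named genes and 32.6% of the 14400 above background on every array. It was the lowest for 14 of the 17 probe sets, as for 24.3% of all probe sets. In the same pool the adipocyte markers were lowest on average and the epididymis markers highest. In a bulk sample, fewer cells of a type and less RNA per cell cannot be told apart. An rsl female pool was the highest of the 8 for 6 genes (Agpat2, Lpin1, Dgat1, Dgat2, Thrsp and Lpl), as for 27% of all genes.

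The 8 genes were also set against the mean of the 14 adipocyte markers in each pool. On this scale 0 of 8 passed by their brightest probe sets in each of the 6 comparisons. The shift, 0.69 for rsl male 1 and 0.07 for rsl male 2, entered every gene and so widened the spread within that group. The SE of the sex difference was 0.25 for Agpat2 in rsl, against 0.14 before. For Gpam in wild type it was 0.25, against 0.16. A call lost on this scale thus does not by itself show a smaller difference. The median over all probe sets moved to 0.55 between the sexes in rsl, against -0.028 before. Among the brightest probe sets Agpat2 kept the most negative difference between rsl males and rsl females, -0.50 (adjusted p = 0.0981). Those of Dgat2 had -0.04, Gpam -0.15, Lpl 0.42 and Pck1 0.28. In wild type the Gpam difference between the sexes was -0.67 (adjusted p = 0.227), against -0.13 for Agpat2. The positive Lpl value is that of the probe set near the top of the range, and the other Lpl probe set had 0.10. The dimmer Pck1 probe set had -0.66 on this scale, so the Pck1 probe sets differed in sign. The second Dgat2 probe set had -0.63 in rsl (adjusted p = 0.0604). The second Thrsp probe set was still lower in rsl males than in rsl females, by -1.20 (adjusted p = 0.00145), while the dimmest had 0.24.

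Of the 14 markers themselves, 3 were lower in rsl males than in rsl females and all 14 differences were negative, with a median of -0.38. In wild type 9 of 14 were negative and the median was -0.06. Cidea, a lipid droplet protein of fat that is also on the brown or beige list, differed most, with 4.32 and 4.96 in rsl males and 4.78 and 5.07 in wild type males, against 7.01 and 7.39 in rsl females and 7.05 and 7.40 in wild type females. The mean difference between the sexes was -0.58 over the 14 markers in rsl and -0.21 in wild type. Over the 13 other than Cidea, a choice made after seeing the data, it was -0.43 in rsl and -0.05 in wild type. Relative to those 13 markers 0 of 8 genes passed by their brightest probe sets in each of the 6 comparisons. Between the sexes in rsl, Agpat2 had -0.65 (adjusted p = 0.116), Lpl 0.27 and Pck1 0.12. In wild type Gpam had -0.83 (adjusted p = 0.0725). The other Lpl probe set had -0.05 in rsl, and the dimmer Pck1 probe set was lower by -0.81 (adjusted p = 0.0426). Also lower in rsl males were the second probe sets of Thrsp, by -1.35 (adjusted p = 0.000266), and of Dgat2, by -0.78 (adjusted p = 0.048). The dimmest Thrsp probe set had 0.08.

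**Figure D3:**
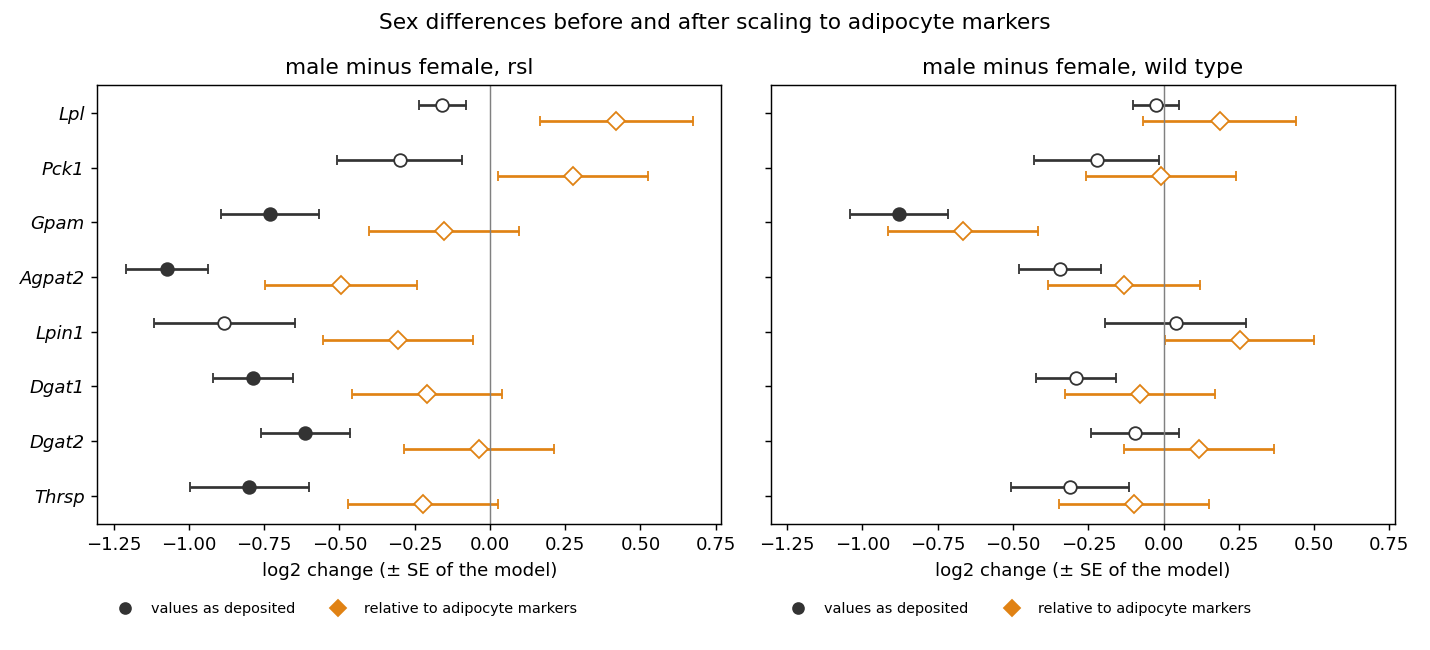
Male minus female differences (log2) of the 8 genes as measured and relative to the mean of 14 adipocyte markers, in rsl and in wild type, where bars are SE and filled points have an adjusted p under 0.05. In rsl the Agpat2 difference goes to -0.50 on the marker scale, and the brightest probe sets of Lpl and Pck1 have 0.42 and 0.28; further probe sets of these genes, not drawn, have 0.10 and -0.66.

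Over the 8 pools the 28 pairs of genes had Pearson correlations from 0.60 to 0.98, with a median of 0.82. Without rsl male 1 they ran from -0.07 to 0.98, with a median of 0.70. The genes whose signal followed each member most closely, among 2685 bright and variable genes, were Rbp4, the plasma carrier of retinol, for Thrsp (r = 0.99), Pex16, needed for peroxisome formation, for Agpat2 (0.99), and Megf9 for Lpl (0.99). Mrap, an accessory protein of melanocortin receptors, was nearest to Dgat2 (0.99), Ralgapa2 to Lpin1 (0.99), Nat8l, which makes N-acetylaspartate, to Gpam (0.98), Acadsb, a mitochondrial acyl-CoA dehydrogenase, to Dgat1 (0.98), and Dtx3l to Pck1 (0.97). The pools share strain, sex and tissue makeup, so these values only describe how the signals ran over 8 arrays.

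Beyond the 8 genes, 54 measured genes of triglyceride synthesis and its supply were tested with limma. Between the strains 0 of 54 passed in either sex or averaged over both, and 0 in the difference of differences. At an unadjusted p under 0.05 there were 17 in males, where 24.6% of all genes had such a p, 6 in females (11.4%), 12 in the average (23.5%) and 12 in the difference of differences (12.8%).

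Gpat3, an acyltransferase that like Gpam attaches the first fatty acid, had 9.09 and 9.32 in rsl males, against 9.59 and 9.70 in wild type males. Rsl females had 10.54 and 10.55, against 9.88 and 9.92 in wild type females. As for Agpat2, the rsl pools were the lowest in males and the highest in females, with no overlap. The rsl minus wild type difference was -0.44 ± 0.09 for males (adjusted p = 0.0724) and 0.65 ± 0.09 for females (adjusted p = 0.0733), and the difference of the 2 was -1.09 ± 0.13 (adjusted p = 0.0679). Between the sexes in rsl it was lower in males by -1.34 ± 0.09 (adjusted p = 0.00101). Leaving 1 pool out gave adjusted p from 0.00459 to 0.438 for the difference of differences. Of the 54 genes, 8 lay lower in rsl males and higher in rsl females without overlap, among them Pparg, as did 2 of the 8 assembly genes and 5.51% of all genes.

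Between the sexes of the rsl strain 17 of the 54 genes were lower in males (31.5%) and 4 were higher (7.4%), against 9.15% and 6.48% of all named genes. Relative to adipocyte markers the split was 6 lower and 13 higher, where all probe sets split into 0.731% lower and 20.7% higher. With Cidea left out of the markers it was 8 lower and 7 higher, where all probe sets split into 0.866% and 7.44%. In wild type 2 were lower and 3 higher, against 2.79% and 2.43% of all named genes. The count of both directions in rsl was 3 without either rsl female pool (1.27% and 1.59% of all probe sets) and 11 without either wild type female pool (6.02%). In wild type, where 3.83% of all probe sets were called with all arrays, it was 1 without either wild type female pool (0.455% and 0.331%), 2 without wild type male 2 (3.2%) or either rsl female pool (1.54%), 4 without wild type male 1 (2.38%), and 16 without either rsl male pool (8.11%).

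**Figure D4:**
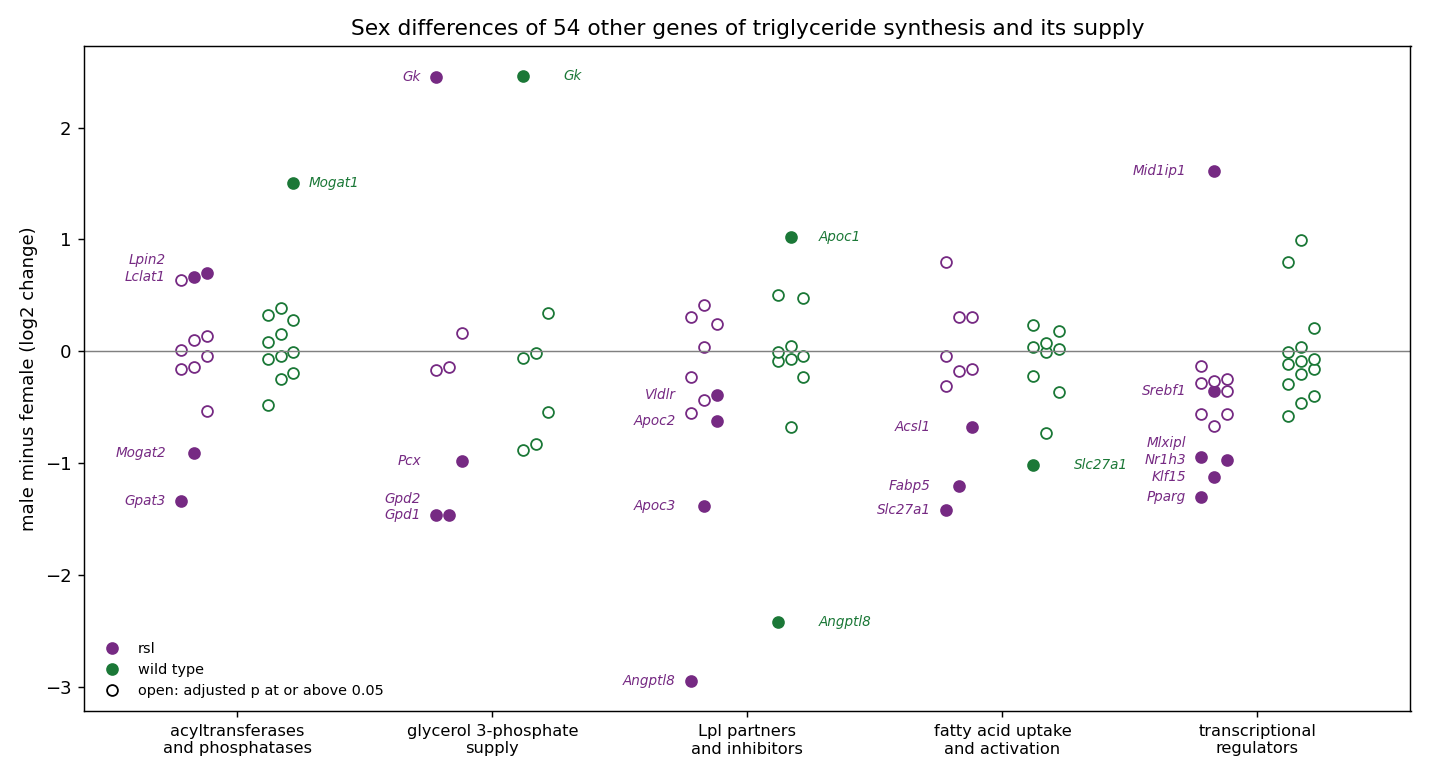
Male minus female difference (log2, vertical axis) of the 54 other genes in rsl and in wild type, by role along the horizontal axis, where filled, named points have an adjusted p under 0.05. In rsl 17 genes are lower and 4 higher in males, in wild type 2 and 3; relative to adipocyte markers, not drawn, the rsl split is 6 lower and 13 higher, where 0.731% of all probe sets are lower and 20.7% higher.

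Among the enzymes beside the assembly genes, Gpat3 and Mogat2, a monoacylglycerol acyltransferase, were lower in rsl males than in rsl females, and Lclat1 and Lpin2 were higher (0.67 ± 0.16 and 0.70 ± 0.16). Mogat1 was higher in wild type males than in wild type females by 1.51 ± 0.30 (adjusted p = 0.044). Of the 7 genes of glycerol 3-phosphate supply, Gpd1 and Gpd2, the cytosolic and mitochondrial glycerol 3-phosphate dehydrogenases, were lower in rsl males by -1.47 ± 0.21 each. Pcx, pyruvate carboxylase, was lower by -0.98 ± 0.17. Gk, glycerol kinase, had 9.95 and 9.17 in rsl males, against 9.61 and 8.84 in wild type males. Rsl females had 7.18 and 7.04, against 6.65 and 6.88 in wild type females. All male pools lay above all female pools, and the difference was 2.45 ± 0.31 in rsl (adjusted p = 0.00629) and 2.46 ± 0.31 in wild type (adjusted p = 0.0106). The means of the testis, epididymis and mammary epithelium lists given above were also higher in male than in female pools. In the last list Csn2, Wap and Elf5 overlapped between the sexes, as did Krt14, Krt5 and Epcam through wild type male 2. Akap4 and Spata4 of the testis list overlapped through rsl male 2. In the epididymis list Lcn8, Lcn9, Rnase10, Cst11 and Cst12 did so through wild type male 1. The part of other tissues in the Gk signal was not tested.

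Among the 11 partners and inhibitors of Lpl, Angptl8, which takes part in inhibiting the lipase, had 5.12 and 4.93 in rsl males, against 5.54 and 5.44 in wild type males. Rsl females had 8.08 and 7.88, against 7.24 and 8.59 in wild type females. Every male pool lay below every female pool. The differences were -2.95 ± 0.38 in rsl (adjusted p = 0.00647) and -2.42 ± 0.38 in wild type (adjusted p = 0.0203), the largest falls among the 54 genes. Apoc2, the activator of Lpl, Apoc3, an inhibitor, and Vldlr, a lipoprotein receptor, were lower in rsl males, by -0.63 ± 0.12, -1.39 ± 0.34 and -0.39 ± 0.10, and Vldlr had 0.19 relative to adipocyte markers. Apoc1, another inhibitor of Lpl, was higher in wild type males than in wild type females by 1.02 (adjusted p = 0.0395). It had 9.88 and 10.54 in rsl males, against 10.41 and 10.56 in wild type males. Rsl females had 9.75 and 9.85, against 9.41 and 9.52 in wild type females. The 10 measured liver markers averaged 5.73 and 5.86 in rsl males, against 6.86 and 7.71 in wild type males. Their means were 5.97 and 5.89 in rsl females, against 5.81 and 5.85 in wild type females. In wild type 5 of the 10 were higher in males. The part of liver RNA in the Apoc1 signal was not tested. Gpihbp1, which carries Lpl across the capillary wall, had 9.41 and 10.26 in rsl males against 10.44 and 10.62 in wild type males, a difference of -0.70 ± 0.24 (adjusted p = 0.174). Gpihbp1 is itself 1 of the 9 endothelial markers, whose mean was 7.29 and 8.21 in rsl males against 8.33 and 8.54 in wild type males.

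In fatty acid uptake and activation, 3 of 10 genes were lower in rsl males than in rsl females. Slc27a1, a fatty acid transporter, had 8.83 and 9.03 in rsl males, against 8.63 and 8.94 in wild type males. Rsl females had 10.29 and 10.40, against 9.85 and 9.77 in wild type females. It was lower in males in both strains, by -1.42 ± 0.12 in rsl (adjusted p = 0.002) and -1.02 ± 0.12 in wild type (adjusted p = 0.00943). Acsl1, which activates fatty acids to acyl-CoA, was lower in rsl males by -0.68 ± 0.08 and Fabp5, a fatty acid binding protein, by -1.21 ± 0.26.

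Of the 14 transcriptional regulators, 5 were lower and 1 was higher in rsl males than in rsl females, and 0 of 14 passed in wild type. Pparg, the master regulator of adipocytes and also 1 of the adipocyte markers, had 9.21 and 9.97 in rsl males, against 10.33 and 10.68 in wild type males. Rsl females had 10.90 and 10.88, against 10.69 and 10.73 in wild type females. Rsl males were the lowest group without overlap, and Pparg was lower in them than in rsl females by -1.30 ± 0.23 (adjusted p = 0.0171). Against wild type males the difference was -0.92 ± 0.23 (adjusted p = 0.101). Klf15, Nr1h3, Mlxipl and Srebf1, regulators of lipid and sugar use, were lower by -1.12 ± 0.21, -0.97 ± 0.22, -0.95 ± 0.16 and -0.36 ± 0.08, and Srebf1 had 0.22 relative to adipocyte markers. Mid1ip1, a relative of Thrsp, was higher in rsl males by 1.61 ± 0.33 (adjusted p = 0.0243), with 10.87 and 10.22 in rsl males against 9.03 and 8.84 in rsl females.

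Of the genes with the smallest p between the strains in each role, those in males included Agpat1 (0.40), Pck2, the mitochondrial form of Pck1 (-0.39), Slc27a4 (0.51) and Ppargc1a (-1.05). In females they included Agpat3 (0.32), Apoc3 (0.78), Slc27a1 (0.54), Acsl1 (0.30), Srebf1 (0.35) and Thrb, a receptor of thyroid hormone (0.40). Averaged over the sexes, Agpat3 differed by 0.33.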

How the data were processed

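RNA of 8 pools was hybridised to Affymetrix Mouse Genome 430 2.0 PM arrays, after labelling of 400 ng. The deposited values are log2 signals, which the authors made with RMA, per the submitters' processing notes (version not given in the sources used here). A second table deposited by the authors supplied the other unit, annotation text, and its 8 value columns, which match no sample, were not used. Of 45141 probe sets, 104 controls were set aside. Names were updated through RefSeq (GRCm38.p6), and each gene takes its brightest probe set (mean of all arrays). Background was the highest of 22 non-specific controls of GC counts 3 to 24; that of GC count 25, with far higher values, was set aside once seen.

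Group means were fitted to all 8 arrays with limma 3.58.1 in R 4.3.3 (4 residual degrees of freedom, empirical Bayes), with 6 two-sided contrasts, adjusted over 45037 probe sets by Benjamini-Hochberg at 0.05. Arrays give no depth, and their number limits the precision. The 8 genes and all lists, marker lists included, were chosen with earlier results of these data known. From the other lists, genes past the threshold in any contrast and the 2 with the smallest p per list and strain contrast could be named; the 3 genes most correlated with each member were taken from genes above background on all 8 arrays with a range of at least 1, and the closest of them is given. One listed gene is not reported here. Gpihbp1 was named after its values were seen. Same-numbered pools were not treated as pairs: their deviations correlated at -0.048 to 0.346, and only 2 of 6 group pairs exceeded 0.1. The alternatives tried were a model of 2 groups alone, the replicate block, an intensity trend, brighter probe sets, quantile normalization, median centring, centring on adipocyte markers (also, added after seeing the data, without Cidea), means over a gene's probe sets, weights per array, and omission of each array in turn.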

Additional observations from a re-analysis of the deposited data

Results flagged for a closer look

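For 10 of the genes described, both rsl pools lay below both wild type pools in males and above both in females. None of the 10 passed the limma test of the difference (rsl minus wild type in males minus that in females) at an adjusted p under 0.05. Of the assembly genes, Agpat2 had -0.73 (adjusted p = 0.275) and Dgat2 had -0.52 (adjusted p = 0.435). Among enzymes, Gpat3 had -1.09 (adjusted p = 0.0679) and Gpd2 had -0.59 (adjusted p = 0.542). Of the Lpl partners, Apoc3 had -1.86 (adjusted p = 0.266), Apoc2 had -0.62 (adjusted p = 0.284) and Vldlr had -0.34 (adjusted p = 0.435). The 10 liver markers, which average 5.73 and 5.86 in rsl males against 6.86 and 7.71 in wild type males and 5.97 and 5.89 in rsl females against 5.81 and 5.85 in wild type females, had a median of -1.17 for the same difference, with all 10 negative. The part of liver RNA in the Apoc3 and Apoc2 values was not tested. Of the regulators, Pparg had -1.09 (adjusted p = 0.316), Nr1h3 had -0.68 (adjusted p = 0.49) and Thrb had -0.48 (adjusted p = 0.374). The same order of pools was found for 5.51% of all named genes.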

How the results depend on the processing

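With each array left out in turn, the assembly genes past the threshold numbered 0 to 4 between strains in males, 0 in females, 0 to 1 in the average, 0 to 7 between the sexes in rsl, 0 to 1 in wild type and 0 to 5 in the difference of differences. The 54 other genes had 3 to 30 in rsl and 1 to 16 in wild type. A fit of only the groups compared gave 2 assembly genes between strains in females, 1 between the sexes in rsl, and 10 (rsl) and 11 (wild type) of the other genes. It could not be applied to the average or to the difference of differences. Array weights gave 11 of the other genes in wild type. Over all probe sets, leaving 1 array out moved the calls between strains in males from 594 to between 31 and 6985, and those between the sexes in rsl from 5559 to between 574 and 10015.

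By brightest probe set, centring on adipocyte markers, which raised the SE of all 8, left 0 assembly genes between the sexes in rsl and 0 in wild type. It turned the sign, by construction of the shift, of Dgat1 (0.34), Lpl (0.22) and Pck1 (0.23) between strains in males, of Agpat2 (0.082), Lpin1 (0.15), Dgat2 (0.075), Lpl (0.10) and Pck1 (0.084) in the average, of Lpl (0.42), Pck1 (0.28), Vldlr (0.19) and Srebf1 (0.22) between the sexes in rsl, of Dgat2 (0.12) and Lpl (0.19) in wild type, and of Lpl (0.23), Pck1 (0.29) and Vldlr (0.023) in the difference of differences. Gene means over probe sets turned Dgat1 in males (0.21), Gpam (0.11), Thrsp (-0.036) and Lpl (0.022) in females, and Gpam in the difference of differences (-0.062). Quantile normalization turned Dgat1 in males (0.012) and Lpl in females (0.00). The cause of these was not tested. Centring without Cidea, added after seeing the data, again left 0 assembly genes by brightest probe set between the sexes in rsl and 0 in wild type. It turned Dgat1 (0.34), Dgat2 (0.004), Lpl (0.22) and Pck1 (0.23) in males, Agpat2 (0.084), Lpin1 (0.15), Dgat2 (0.077), Lpl (0.10) and Pck1 (0.086) in the average, Lpl (0.27), Pck1 (0.12), Vldlr (0.038) and Srebf1 (0.067) between the sexes in rsl, Lpl (0.026) in wild type, and Lpl (0.24), Pck1 (0.29) and Vldlr (0.032) in the difference of differences.

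Leaving 1 array out turned 14 values that never passed the threshold in the fit of all arrays. Between strains in males Gpam ran from -0.11 to 0.40, Dgat1 from -0.23 to 0.18 and Pck1 from -0.47 to 0.20. In females Gpam ran from -0.062 to 0.053, Lpl from -0.023 to 0.004 and Pck1 from -0.17 to 0.065. In the average Gpam ran from -0.057 to 0.20, Lpin1 from -0.23 to 0.17, Dgat2 from -0.22 to 0.017 and Pck1 from -0.26 to 0.074. Between the sexes Pck1 in rsl ran from -0.64 to 0.036 and Lpin1 in wild type from -0.073 to 0.15. In the difference of differences Gpam ran from -0.10 to 0.40 and Pck1 from -0.42 to 0.26.

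The replicate block gave 6 assembly genes between the sexes in rsl and moved none of these gene counts by over 1.5 times. Each group holds a pool of each replicate number, so the block could change p-values but no difference or its sign. Over all single genes and settings, 1247 values kept direction and side of the threshold, 166 fell back from it, 32 passed it anew and 61 turned sign. These counts include settings in which the direction could not change, the replicate block and the intensity trend among them.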
